A study of Arabidopsis thaliana with 6 samples.

Results

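Coding sequences of the plastid and mitochondrial genomes were followed in seedlings of Arabidopsis thaliana, ecotype Col-0, with and without the methylated thioarsenical DMMTA. Loci were chosen by locus tag alone, ArthCp for the plastid and ArthMp for the mitochondrion, which gave 191 organelle loci among the 26551 loci of the tables, 84 plastid and 107 mitochondrial. Seedlings were grown in shaken liquid medium under long days, and at 6 days of age DMMTA was added to a final 15 µM for 6 h in the DMMTA group. Control seedlings got no DMMTA. There were 3 libraries of each kind, labelled as biological replicates. Both groups share the ecotype, the age and the medium change on the day before treatment. Poly(A) RNA of the whole seedling was sequenced, so fewer cells of a type and less RNA per cell cannot be told apart.

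Plastids and mitochondria keep small genomes that descend from bacteria. They encode part of the photosynthetic and respiratory complexes and part of the organelles' own ribosomes, while the nucleus encodes the other subunits. Most organelle genes are transcribed together with their neighbours and the transcripts are then cut, trimmed and edited. In both organelles a poly(A) tail marks an RNA for decay, unlike in the cytosol, where the tail stabilises the message. A library made from poly(A) RNA therefore holds the tailed or A-rich fraction of organelle RNA and not its whole amount.

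Levels are given as TPM, which is the deposited RPKM summed per locus and rescaled to 1000000 in each library. Library values are listed in the order of replicates 1, 2 and 3. Estimated depth was 72400000 to 135000000 reads in the control libraries and 66200000 to 110000000 in the DMMTA libraries. The 11 green tissue markers summed to 18402 to 21035 TPM in control and 17839 to 20998 TPM in DMMTA libraries. Among 8 root markers limma called 5 lower, beside 10.5% of all loci tested. The summed level of all 8 was 2106 to 2914 TPM against 1926 to 2519 TPM and was mostly PYK10, which was not called. Without PYK10 the sum was 93.5, 101 and 93.0 TPM in control and 29.6, 47.6 and 36.5 TPM in DMMTA libraries, so the groups were apart. The 3 control libraries differed from each other in organelle RNA more than the groups did, with control replicate 1 lowest, so the results below are given with and without single libraries where this matters.

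With the libraries taken as unpaired, no organelle locus was called different between DMMTA and control. All 84 plastid loci and 34 of the 107 mitochondrial loci passed the filter of at least 1 TPM in at least 3 libraries. Of these 118, limma called 0 at an adjusted p under 0.05, and 0 had an unadjusted p under 0.05. Over all 18813 loci tested, 27.9% were called, 17.4% higher and 10.5% lower, and 39.9% had an unadjusted p under 0.05. The 2 groups overlapped at every one of the 118 loci, whereas at 46.5% of all loci tested they did not overlap, with DMMTA above at 27.8% and below at 18.6%. The smallest adjusted p of the unpaired fit was 0.131 by limma, at rpl23 (ArthCp065). Leaving out control replicate 2 called 2 of 27 tested mitochondrial loci higher, beside 16.9% of all loci. Leaving out DMMTA replicate 1 called 3 of 84 plastid loci higher, beside 12.5% of all loci. Testing without a filter called 1 of 107 mitochondrial loci higher, beside 13.3% of all loci. Each of these organelle shares lay below the share over all loci. With the replicate number as a block, 15 of 84 plastid loci were called higher, a share near the 18.8% called higher over all loci. The mitochondrial share, 1 of 34, lay below it. In that fit 53 of 84 plastid and 4 of 34 mitochondrial loci had an unadjusted p under 0.05. The share of all loci with such a p was not computed for that fit. After each locus's group mean was subtracted from its log2 levels, same-numbered libraries correlated at 0.879, 0.833 and 0.583 over plastid loci. Over all loci these correlations were 0.243, 0.334 and 0.082. The block with scaling within each organelle called 0 plastid loci and 1 mitochondrial locus, lower, beside 11.9% lower over all loci. The 0 calls thus hold for the unpaired fit and not for the block alone.

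The fold changes of most organelle loci were above 0 on the log2(TPM + 0.5) scale, a scale that understates the change of low loci. The median log2 fold change was 0.44 over the plastid loci, with 78 above 0 and 6 below, and 0.30 over the tested mitochondrial loci, with 31 above and 3 below, beside 0.04 over all loci tested. In the unpaired fit this direction reversed when control replicate 1 alone was left out, which kept the low DMMTA replicate 1. Without that library the median was -0.18 over the plastid loci, 17 of 84 above 0, and -0.16 over the mitochondrial loci, 8 of 34 above 0. Without control replicate 2 the plastid median was 1.01, and without DMMTA replicate 2 it was 0.13. Against the control of the same number, DMMTA lay above at 82, 36 and 71 of 84 plastid loci in replicates 1, 2 and 3. The mitochondrial counts were 30, 8 and 31 of 34. The intervals of the unpaired fit were wide. For 64 of 84 plastid loci the 95% interval held a 2-fold rise, for 34 it held a 2-fold fall, and for 20 it lay within a 2-fold change either way. Among the 34 mitochondrial loci these counts were 26, 5 and 8. A 2-fold rise thus lay within the interval at most loci of both genomes, and a 2-fold fall lay outside it at most.

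**Figure D1:**
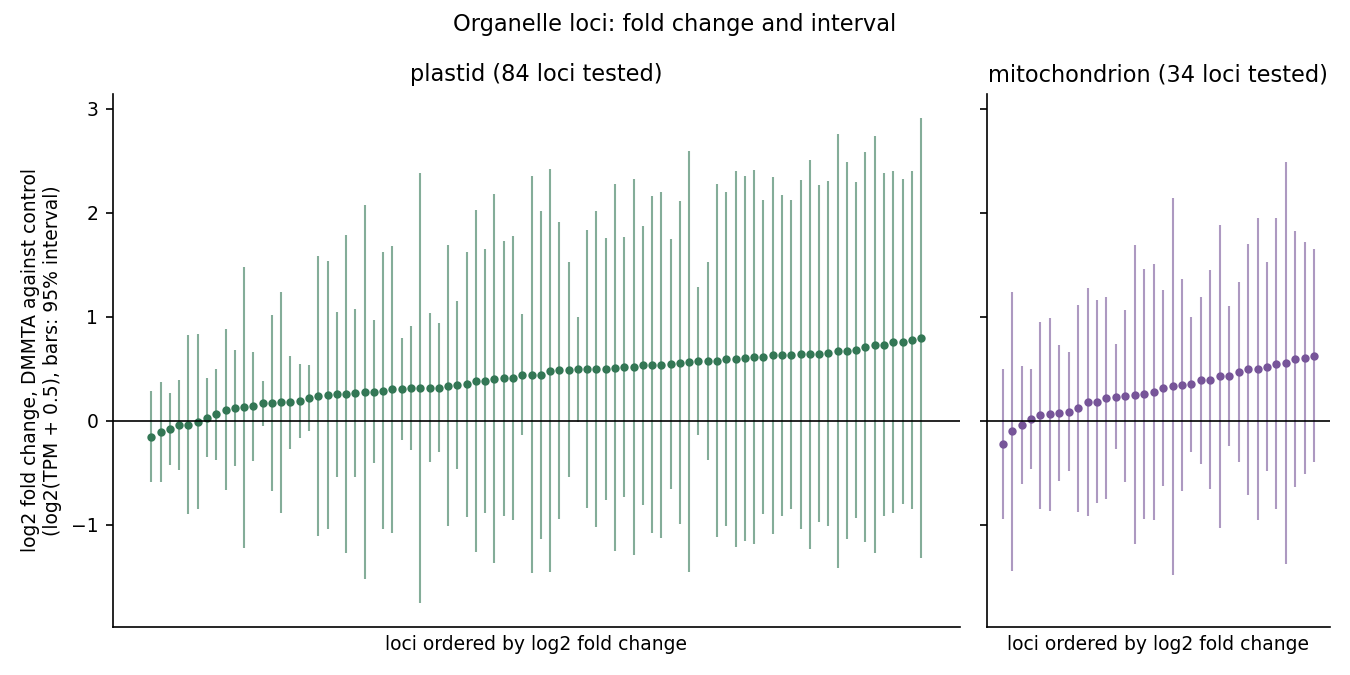
Log2 fold change of DMMTA against control for the 84 plastid and 34 mitochondrial loci tested, ordered by value. The 95% intervals are from the unpaired limma fit. Every interval crosses 0, and the points run from -0.15 to 0.80 in the plastid and from -0.23 to 0.63 in the mitochondrion.

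The spread within groups was large. The median SD within groups on the log2 scale was 1.03 over plastid loci and 0.75 over mitochondrial loci, against 0.17 over all loci tested. The highest of the 6 libraries exceeded the lowest by a median of 7.06-fold for plastid and 5.29-fold for mitochondrial loci, against 1.56-fold over all loci. Control replicate 1 was the lowest library at 81 of 84 plastid and 29 of 34 mitochondrial loci, and control replicate 2 was the highest at 41 and 20. The median plastid locus stood at 9.47, 72.9 and 32.0 TPM in control and 22.6, 71.1 and 54.7 TPM in DMMTA libraries. The median nuclear locus stood between 12.2 and 14.2 TPM in the same libraries. Control replicate 1 had an estimated 117000000 reads and 20416 TPM of summed green tissue markers, both within the range of the other libraries. The part of either in this spread was not tested.

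**Figure D2:**
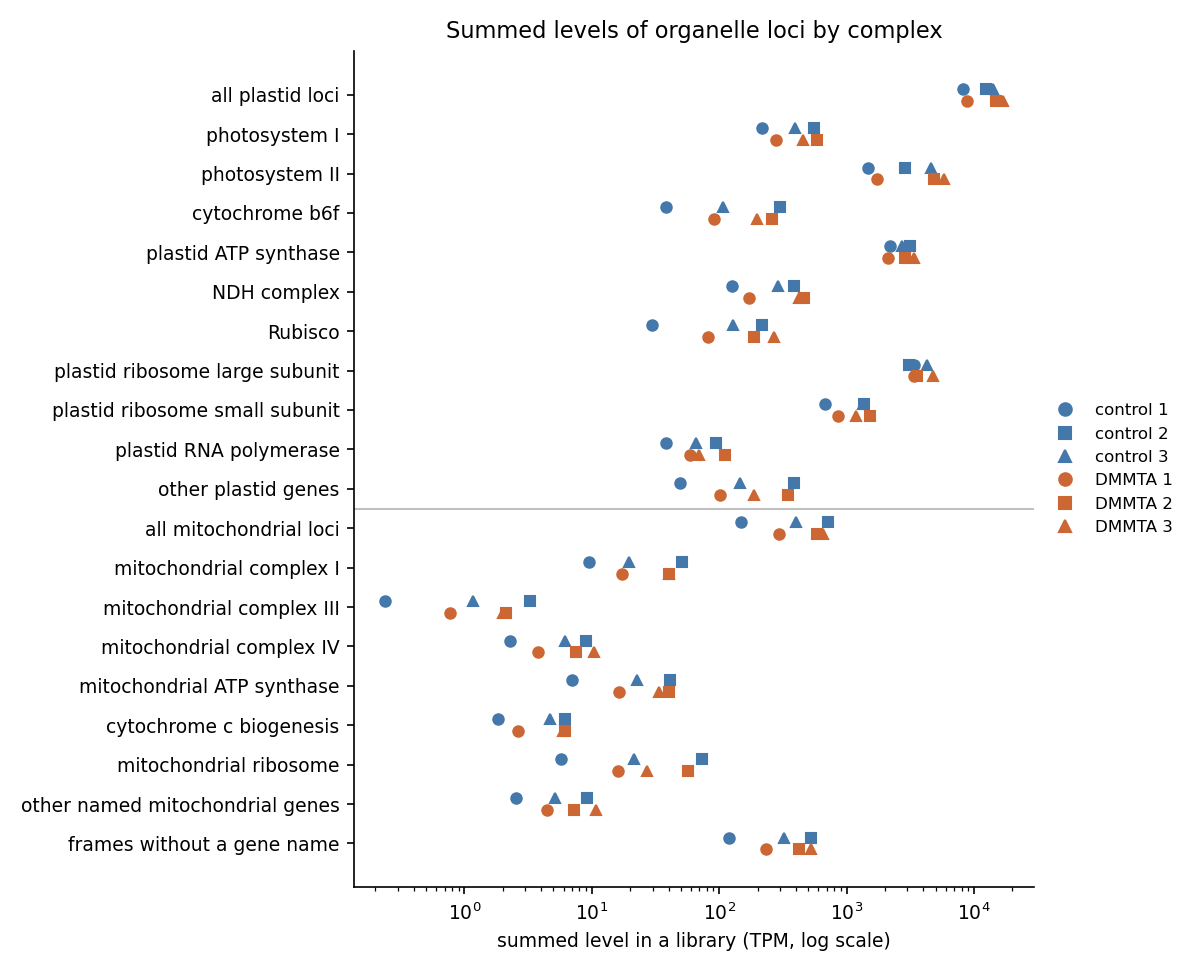
Summed level of the plastid and mitochondrial loci and of each complex in the 6 libraries, on a log axis in TPM; blue symbols are control and orange symbols DMMTA libraries, with the symbol giving the replicate. The groups overlap in every line, and control replicate 1 lies lowest in most.

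All plastid loci summed to 8233, 12401 and 14041 TPM in control and 8870, 14760 and 16813 TPM in DMMTA libraries. The ratio of the group means was 1.17, and both replicates 1 lay below the other 4 libraries. The groups overlapped, so the totals did not separate them. Without control replicate 1 the ratio was 1.02. Few loci carried a large share of this sum: psbM, rpl32, atpE and atpB together held 44.8% to 68.1% of it. The coding sequences of psbM and rpl32, the highest plastid loci, are shown because both are very short and hold runs of A, and the windows from rpoA, accD and rpoC2 are shown because they hold the 3 longest runs of A among the plastid coding sequences. Capitals mark the longest run of A in each sequence, and a pair of equally long runs in rpl32, as RefSeq gives the sequences in the assembly TAIR10.1.
psbM (ArthCp016, whole coding sequence): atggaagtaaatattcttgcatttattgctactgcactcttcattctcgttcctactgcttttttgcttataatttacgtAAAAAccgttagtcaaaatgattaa
rpl32 (ArthCp072, whole coding sequence): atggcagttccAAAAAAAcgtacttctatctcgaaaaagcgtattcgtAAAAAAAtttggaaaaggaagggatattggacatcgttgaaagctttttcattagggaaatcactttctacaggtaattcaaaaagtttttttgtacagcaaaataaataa
rpoA (ArthCp055, window): aacctaagAAAAAAAAAAAAAAcaaaagaa
accD (ArthCp031, window): tttttgatAAAAAAAAAAAAAtttttgaga
rpoC2 (ArthCp012, window): gagtagagAAAAAAAAAAAAAggattgaac

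The runs were 5 bases long in psbM, 7 in rpl32, 14 in rpoA and 13 in accD and rpoC2. A long run did not go with a high or a steady level. Across 78 plastid loci with distinct coding sequences, Spearman's rho between the longest run and the mean level was -0.21, and between the run and the ratio of highest to lowest library it was -0.04. The share of A in the coding sequence had a rho of 0.084 with the level and -0.35 with that ratio, and the coding length had a rho of -0.32 with the level. These loci share libraries and genome, so the values are descriptions only.

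Photosystem II, which splits water, had 15 plastid loci and the highest plastid locus of all. psbM, a small subunit at the dimer interface, stood at 1234, 1313 and 3677 TPM in control and 1239, 3423 and 4374 TPM in DMMTA libraries. Both replicates 1 were low, and control replicate 2 lay with them. Its log2 fold change was 0.55 ± 0.53 (SE), adjusted p = 0.474 by limma. psbA, which encodes the D1 protein of the reaction centre, stood at 37.2, 164 and 237 TPM against 89.9, 121 and 445 TPM, a range of 11.9-fold over the 6 libraries. Its log2 fold change was 0.58 with an interval from -1.12 to 2.27. psbB, an inner antenna protein, stood at 9.21, 67.0 and 29.96 TPM against 20.4, 58.2 and 57.9 TPM, with log2 fold change 0.61 ± 0.66. All 15 members lay above 0 by their fold changes and none was called. So did 78 of the 84 plastid loci, and 10215 of the 18813 loci tested, lie above 0.

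Photosystem I, which reduces ferredoxin, had 5 plastid loci, and one of them behaved unlike the rest. psaJ, a small peripheral subunit, stood at 183, 234 and 287 TPM in control and 192, 287 and 255 TPM in DMMTA libraries, 1.57-fold from lowest to highest. psaI, another small subunit, stood at 10.7, 112 and 39.2 TPM against 27.2, 105 and 59.4 TPM. The reaction centre genes psaA and psaB, which are neighbours on the genome, moved as a pair. psaA stood at 8.30, 77.9 and 26.4 TPM against 22.0, 71.0 and 55.3 TPM, and psaB at 9.37, 85.7 and 29.3 TPM against 25.3, 77.7 and 62.4 TPM. Their log2 fold changes were 0.76 ± 0.72 and 0.77 ± 0.71, among the larger plastid values, and within the spread of their libraries.

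The cytochrome b6f complex, which links the photosystems, had 6 plastid loci with log2 fold changes from 0.50 to 0.68. petB, cytochrome b6, stood at 6.98, 81.0 and 23.9 TPM in control and 17.6, 68.1 and 48.3 TPM in DMMTA libraries. petD, subunit IV, stood at 7.15, 71.5 and 23.7 TPM against 18.6, 61.1 and 42.3 TPM. Both had control replicate 2 highest and control replicate 1 lowest. petN, a small subunit, had the smallest p of the complex, with 9.57, 34.8 and 22.0 TPM against 22.2, 27.0 and 41.8 TPM and a log2 fold change of 0.58 ± 0.42 (limma adjusted p = 0.336). petG, also small, stood at 3.58, 23.7 and 8.63 TPM against 7.94, 21.2 and 14.5 TPM.

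The plastid ATP synthase, which makes ATP from the proton gradient, was split between 2 steady and 4 variable genes. atpE, the epsilon subunit, stood at 1485, 1876 and 1974 TPM in control and 1339, 1698 and 2218 TPM in DMMTA libraries, and its neighbour atpB, the beta subunit, at 660, 810 and 584 TPM against 682, 733 and 930 TPM. The libraries spanned 1.66-fold and 1.59-fold, with DMMTA replicate 3 highest for both. The log2 fold changes were -0.04 ± 0.19 and 0.19 ± 0.16. The other 4, atpI, atpH, atpF and atpA, form a second group of neighbours and spanned 7.77-fold to 16.3-fold. atpH, the ring subunit of the membrane part, stood at 14.6, 185 and 63.4 TPM against 43.7, 168 and 105 TPM. Their summed level was 34.5, 452 and 148 TPM in control and 97.6, 417 and 228 TPM in DMMTA libraries.

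The plastid NDH complex, which carries electrons around photosystem I, had 12 tags for 11 genes. ndhJ, a subunit of its stromal arm, had the smallest p, at 37.4, 58.7 and 44.0 TPM in control and 40.0, 81.1 and 99.3 TPM in DMMTA libraries. DMMTA replicates 2 and 3 lay above all controls and DMMTA replicate 1 among them. Its log2 fold change was 0.58 ± 0.31, adjusted p = 0.203 by limma. Without DMMTA replicate 1 it was called, with log2 fold change 0.96 and adjusted p = 0.0136. ndhK, of the same arm, was the highest member at 48.2, 81.3 and 105 TPM against 57.0, 108 and 138 TPM. ndhF, of the membrane arm, stood at 3.05, 10.5 and 7.47 TPM against 4.90, 13.7 and 10.8 TPM.

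rbcL, the large subunit of the carbon-fixing enzyme Rubisco, stood at 29.8, 217 and 128 TPM in control and 81.9, 187 and 268 TPM in DMMTA libraries. Its range was 8.98-fold, with control replicate 1 far below the other 5 libraries. The log2 fold change was 0.76 with an interval from -0.80 to 2.32.

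By class median the genes of the plastid ribosome were the steadiest, but their members differed. The widest were rpl20 with 12.4-fold and rps16 with 13.3-fold, and the medians count identical copies separately. The 11 large subunit tags had a median range of 2.21-fold and the 14 small subunit tags one of 2.71-fold, against 7.06-fold over all plastid loci. rpl32 stood at 2227, 1555 and 2531 TPM in control and 2020, 1772 and 3173 TPM in DMMTA libraries, the one plastid locus in which control replicate 2 was the lowest library. The plastid rpl16 stood at 431, 434 and 642 TPM against 464, 475 and 463 TPM. rpl14 was the steadiest organelle locus, at 289.5, 294 and 336 TPM against 346, 356 and 329 TPM, a range of 1.23-fold. Its log2 fold change was 0.17 with an interval from -0.05 to 0.38, so a 2-fold change lay outside it. rpl23, present under a pair of tags with identical sequence, stood at 29.7, 48.5 and 38.9 TPM against 40.1, 65.6 and 60.1 TPM at ArthCp065. Its log2 fold change was 0.49 ± 0.22, adjusted p = 0.131 by limma, and 0.71 with adjusted p = 0.0422 without DMMTA replicate 1. Among small subunit genes, rps3 stood at 170, 195 and 315 TPM against 184, 230 and 198 TPM. rps19 stood at 87.7, 122 and 169 TPM against 108, 153 and 146 TPM. In both the groups overlapped. rps14, which lies beside psaB and not in the ribosomal cluster, stood at 14.9, 105 and 63.4 TPM against 32.4, 118 and 110 TPM.

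Part of the steady loci lay side by side. Of 84 plastid loci, 11 spanned less than 2-fold over the 6 libraries, and 5 of these, rps19, rpl22, rps3, rpl16 and rpl14, are consecutive genes. These 5 were read off after their values were seen. In the row of 7 neighbours from rpl23 to rpl14 the libraries held 29.7 to 65.6 TPM at rpl23 and 431 to 642 TPM at rpl16. The ratio of highest to lowest library was 2.21 at rpl23 and 1.23 at rpl14. The ycf1 tag ArthCp070 and the genes psaJ, atpB, atpE and rps15 were also among the steady loci. A longer ycf1 tag outside the choice of tags, Arthcp087, held 29.9 to 69.7 TPM. The 22 loci that spanned more than 10-fold included accD with 20.8-fold, ycf4 with 19.5-fold and matK with 18.1-fold.

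**Figure D3:**
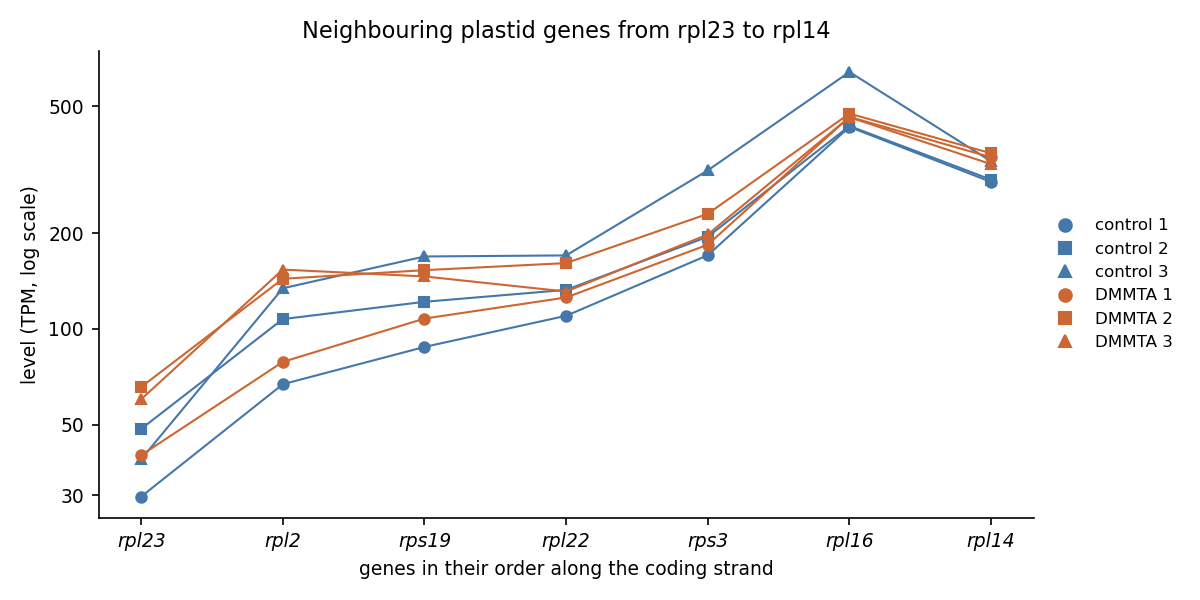
Level in TPM, on a log axis, of 7 neighbouring plastid genes in their order along the coding strand, with one line for each library. The lines lie close at rpl14, with a ratio of 1.23, and further apart at rpl23, with a ratio of 2.21, where control replicate 1 is lowest.

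**Figure D4:**
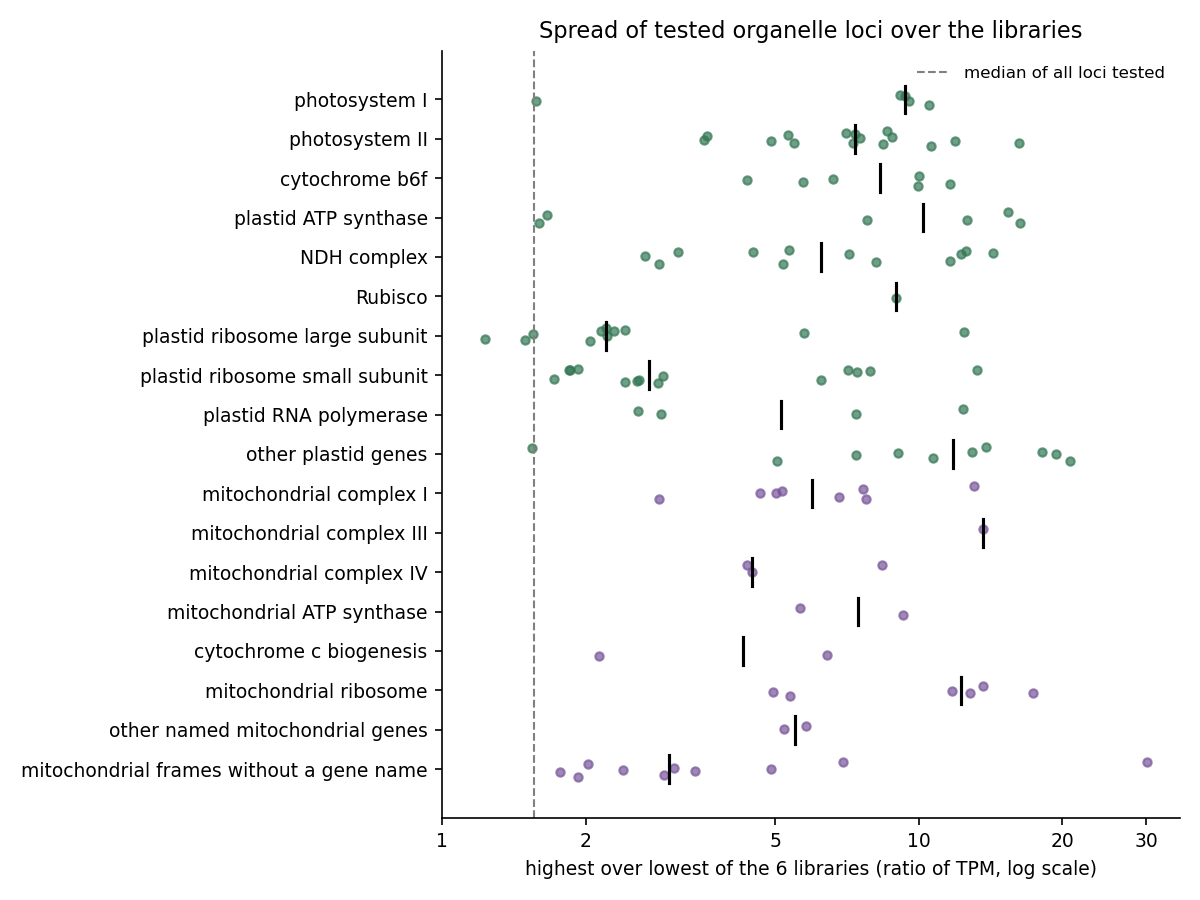
Ratio of the highest to the lowest of the 6 libraries for each tested organelle locus, on a log axis, by class; bars are class medians and the dashed line is the median of all loci tested, 1.56. The class medians of the plastid ribosome lie lowest, at 2.21 and 2.71.

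The plastid RNA polymerase of bacterial type, which transcribes most photosynthesis genes, has 4 core subunits encoded in the plastid. rpoA stood at 31.9, 62.7 and 53.5 TPM in control and 47.1, 82.0 and 54.1 TPM in DMMTA libraries, with log2 fold change 0.32 ± 0.27. The others were low. rpoC1 stood at 1.69, 12.5 and 4.75 TPM against 3.88, 10.9 and 5.51 TPM. rpoC2 stood at 0.768, 9.51 and 2.76 TPM against 2.72, 8.81 and 4.60 TPM, a 12.4-fold range. Of the other plastid genes, clpP, a subunit of the stromal protease, stood at 17.5, 88.2 and 47.2 TPM against 30.2, 87.7 and 57.7 TPM. ycf4, a photosystem I assembly factor, stood at 3.80, 74.0 and 21.5 TPM against 15.3, 69.8 and 32.7 TPM, and its log2 fold change of 0.80 ± 0.93 was the highest in the plastid. The tag ArthCp070 of ycf1, which encodes a component of protein import, stood at 8.79, 11.7 and 11.4 TPM against 12.0, 13.5 and 11.7 TPM. It shares sequence with a longer ycf1 tag, Arthcp087, which the choice of tags leaves out and which stood at 33.7, 29.9 and 69.7 TPM against 32.3, 36.2 and 40.8 TPM.

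The mitochondrial loci were far lower. They summed to 149, 720 and 402 TPM in control and 296, 585 and 655 TPM in DMMTA libraries, a ratio of group means of 1.21 between overlapping groups. Without control replicate 2 the ratio was 1.86 and without control replicate 1 it was 0.91. One reading frame without a gene name, ArthMp003, held 64.04% to 72.8% of the sum. It stood at 97.3, 472 and 285 TPM against 206, 375 and 477 TPM, with control replicate 1 lowest and a log2 fold change of 0.50 ± 0.53. Without ArthMp003 the sum was 51.8, 248 and 118 TPM against 90.1, 210 and 178 TPM. Of the 107 loci 73 failed the filter, and the loci at its edge had mean levels from 0.706 TPM, the lowest tested, to 1.09 TPM, the highest not tested.

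Among respiratory complexes, complex I, the entry point of electrons from NADH, had 9 loci of which 8 were tested. nad9, a subunit of its matrix arm, stood at 2.28, 15.5 and 3.81 TPM in control and 4.08, 14.7 and 7.29 TPM in DMMTA libraries. Both replicates 2 were high. nad1, a membrane subunit, is a sum over 10 coding sequence rows and so no level per length. It stood at 2.54, 12.7 and 4.91 TPM against 5.41, 10.6 and 11.2 TPM, with log2 fold change 0.61 ± 0.49, and was called without control replicate 2, with adjusted p = 0.0412 by limma. The locus ArthMp086, described as NADH dehydrogenase subunit 3, stood at 0.290, 1.71 and 0.468 TPM against 0.542, 1.68 and 2.22 TPM. cob, cytochrome b of complex III, stood at 0.239, 3.25 and 1.17 TPM against 0.768, 2.11 and 2.00 TPM.

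Complex IV, which reduces oxygen, had 3 loci. cox2 stood at 1.25, 3.68 and 2.66 TPM in control and 2.04, 3.49 and 5.56 TPM in DMMTA libraries, with log2 fold change 0.47 ± 0.38. cox1, the catalytic subunit, stood at 0.844, 3.68 and 2.38 TPM against 1.17, 2.79 and 3.30 TPM, and cox3 at 0.196, 1.64 and 1.17 TPM against 0.542, 1.27 and 1.61 TPM. In each of the 3, control replicate 1 was lowest. Of the ATP synthase, atp9, the membrane ring subunit, was the highest named mitochondrial locus with 5.32, 27.6 and 17.7 TPM against 12.6, 29.98 and 25.1 TPM. Its log2 fold change was 0.59 with an interval from -0.64 to 1.82. atp1, the alpha subunit, stood at 1.23, 11.4 and 3.61 TPM against 2.86, 8.77 and 6.13 TPM. orf25 and orfB, also known as ATP synthase subunits atp4 and atp8, had log2 fold changes of 0.52 ± 0.44 and 0.34 ± 0.45.

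The 6 mitochondrial ribosomal protein genes tested had a median range of 12.3-fold. The mitochondrial rpl16 (ArthMp008) stood at 1.83, 31.6 and 7.34 TPM in control and 6.60, 24.7 and 9.90 TPM in DMMTA libraries, and its neighbour by tag rps3 at 1.79, 24.4 and 7.41 TPM against 4.52, 19.2 and 8.61 TPM. Both had the replicates 2 high in both groups. The class summed to 5.71, 73.2 and 21.5 TPM against 16.2, 56.8 and 26.9 TPM, a ratio of 0.995. The mitochondrial rpl2 and rps12 had log2 fold changes of 0.39 ± 0.35 and 0.32 ± 0.41. Of 5 genes of cytochrome c biogenesis, 2 were tested. ccb382 stood at 0.392, 2.51 and 1.98 TPM against 0.750, 2.43 and 2.14 TPM, and ccb206 at 0.938, 1.75 and 1.32 TPM against 0.904, 1.93 and 1.58 TPM. Among reading frames without a gene name, 10 of 74 were tested. ArthMp110 stood at 5.80, 8.84 and 8.36 TPM against 4.90, 9.43 and 8.46 TPM. ArthMp095 and ArthMp033 had log2 fold changes of 0.43 ± 0.29 and 0.35 ± 0.29.

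Nuclear copies of mitochondrial DNA limit what these values measure. In TAIR10.1, chromosome 2 holds a large insertion of the mitochondrial genome. Of 33 mitochondrial genes named in that assembly, 22 had at least 90% of their stretches of 31 bases also in the nuclear genome, and 6 had under 10%, among them cox1, nad9 and rps3. In the plastid 49 loci had none, and the highest share was 46.9%, at the ycf1 tag ArthCp070. Conversely, 51 nuclear loci had at least 90% organelle sequence, 50 of them on chromosome 2, and of the 14 tested limma called 0. Control replicate 1 was the lowest library at 10 of these 14. For 4 of these 14 the coding sequence lay wholly inside one named mitochondrial gene, rps4, rpl5, rps12 or cob. AT2G07734, inside rps4, stood at 0.205, 4.76 and 1.24 TPM in control and 0.859, 2.83 and 1.15 TPM in DMMTA libraries. The mitochondrial rps4 itself stood at 0.384, 4.51 and 1.32 TPM against 0.850, 2.74 and 0.993 TPM. AT2G07725, inside rpl5, stood at 0.998, 6.77 and 2.50 TPM against 1.49, 3.99 and 2.93 TPM, beside 0.520, 6.66 and 2.25 TPM against 1.59, 4.72 and 2.61 TPM for rpl5. Reads of such pairs cannot be assigned to one genome, so these mitochondrial values are uncertain. The same limit holds for other genes found in both genomes, among them cox3, atp1 and atp9, each with 100% of its stretches. No such share was available for ArthMp003, which held most of the mitochondrial sum.

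The nuclear genes that serve organelle transcription were far steadier than the organelle transcripts, and one group of them fell. The plastid RNA polymerase works in a large complex with proteins encoded in the nucleus, called polymerase associated proteins, many of them named pTAC for plastid transcriptionally active chromosome. Of 12 such genes limma called 7 lower and 0 higher, beside 10.5% lower over all loci tested. All 12 had every DMMTA library below every control library, which held for 18.6% of all loci. Their median log2 fold change was -0.36, beside 0.04 over all loci. Summed, they stood at 399, 430 and 470 TPM in control and 338, 338 and 318 TPM in DMMTA libraries. PTAC10, which carries an RNA-binding domain, stood at 32.6, 28.8 and 30.5 TPM against 21.5, 21.0 and 19.0 TPM, with log2 fold change -0.57 ± 0.10 and adjusted p = 0.00383. FSD3, an iron superoxide dismutase of the complex, fell from 59.0 ± 9.53 to 40.4 ± 6.36 TPM (mean ± SD, n = 3 libraries each), with adjusted p = 0.0331 by limma. PTAC12, also known as HEMERA and involved in light signalling, fell from 29.2 ± 2.80 to 20.8 ± 1.26 TPM (SD, n = 3), with adjusted p = 0.0118 by limma. PTAC2, a pentatricopeptide repeat protein, stood at 10.2, 10.7 and 9.36 TPM against 7.67, 7.27 and 6.98 TPM, with adjusted p = 0.0225. PTAC14, PTAC3 and PTAC6 fell as well, with log2 fold changes of -0.38, -0.37 and -0.34. The 5 not called, FSD2, TRXZ, PTAC7, MURE and FLN1, had log2 fold changes from -0.34 to -0.20. The number called was 5 without control replicate 1 or DMMTA replicate 1, 3 without control replicate 2 (8.26% of all loci called lower), and 1 without DMMTA replicate 2 (7.85%) or DMMTA replicate 3 (6.09%). PTAC10 was called in each of the 14 alternatives run for this list. The root markers CASP1, EXP7, COBL9, WOX5 and RHD6 fell in the same libraries and the green tissue markers did not move together; their part in the result was not tested.

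**Figure D5:**
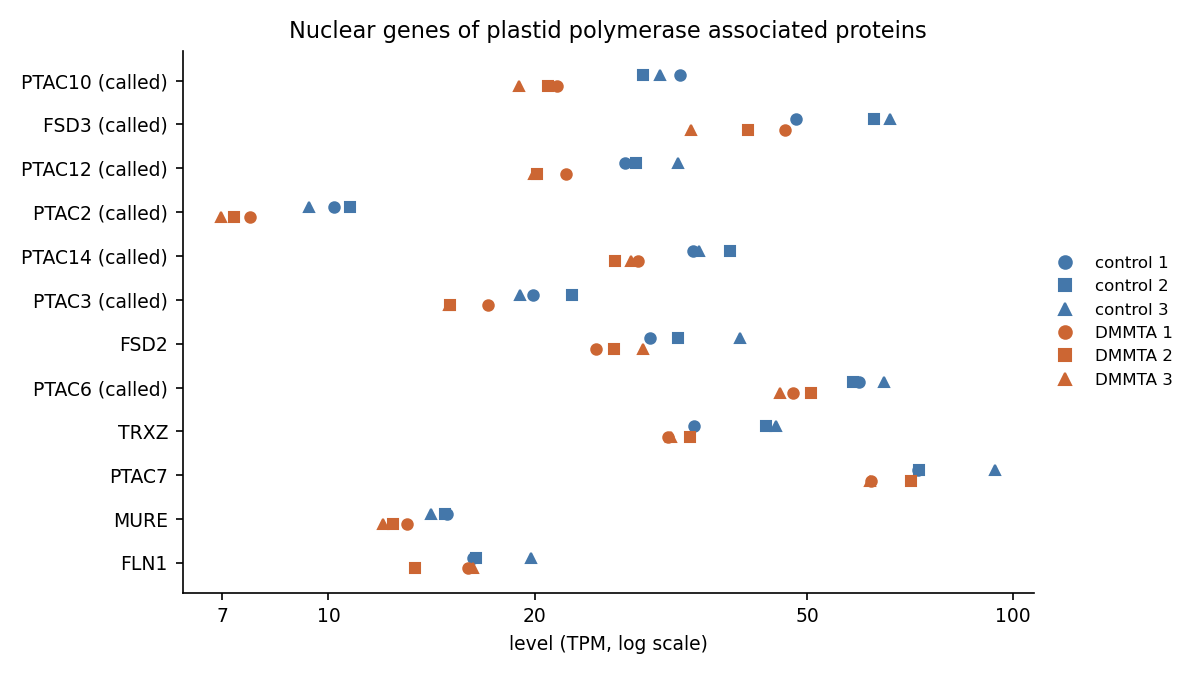
Level in TPM, on a log axis, of 12 nuclear genes of plastid polymerase associated proteins in the 6 libraries, ordered by log2 fold change; genes called lower by limma are marked. In every line the orange DMMTA symbols lie left of the blue control symbols.

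Sigma factors direct the bacterial-type polymerase to its promoters. Among these and the organelle polymerases of phage type, 2 of 9 genes were called higher, a share near the 17.4% over all loci, and 0 lower. At 3 of the 9 every DMMTA library lay above every control library, beside 27.8% of all loci. At 3 every one lay below, beside 18.6%. These 3, SIG3, SIG4 and SIG6, had log2 fold changes of -0.21, -0.48 and -0.24 and were not called. SIG5, a sigma factor known to respond to light and stress, stood at 4.53, 4.20 and 4.07 TPM in control and 8.08, 7.22 and 6.54 TPM in DMMTA libraries, with log2 fold change 0.70 ± 0.13 and adjusted p = 0.00453 by limma. RPOTMP, a phage-type polymerase of both organelles, stood at 7.25, 7.14 and 5.83 TPM against 9.75, 9.16 and 8.93 TPM, with adjusted p = 0.0337. It was not called without control replicate 3 or any one DMMTA library, where 1 of the 9 was called. psbD, whose blue-light promoter SIG5 serves, stood at 30.9, 217 and 143 TPM against 56.1, 215 and 178 TPM and was not called; it is named for this and not by the rule for named genes.

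Of 21 factors of organelle RNA turnover, binding and editing, limma called 2 lower and 0 higher, a share near the 10.5% called lower over all loci. At 7 of the 21 every DMMTA library lay below every control library, beside 18.6% of all loci, and at 2 every one lay above, beside 27.8%. Their median log2 fold change was -0.13, beside 0.04 over all loci. Summed, they stood at 2484, 2776 and 2914 TPM in control and 2350, 2353 and 2403 TPM in DMMTA libraries, so the sums were apart. CP29A, a chloroplast RNA-binding protein, stood at 486, 627 and 580 TPM in control and 405, 422 and 413 TPM in DMMTA libraries, with log2 fold change -0.44 ± 0.11 and adjusted p = 0.0183 by limma. RNJ, the plastid ribonuclease J, stood at 20.0, 20.1 and 19.1 TPM against 16.5, 14.2 and 15.4 TPM, with adjusted p = 0.0351. CP29A was not called without any one DMMTA library, and RNJ was not called without control replicate 1 or 2 or DMMTA replicate 2 or 3. The number called in the list was 1 without DMMTA replicate 1 and 0 without DMMTA replicate 2 or 3. Of 8 editing factors of the MORF family in this list none was called.

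Nuclear subunits of the same complexes mostly did not pass the test. Of 20 nuclear subunits of plastid complexes 1 fell, RBCS1B, a small subunit of Rubisco, at 1526, 1601 and 2249 TPM in control and 1074, 1200 and 1283 TPM in DMMTA libraries, with adjusted p = 0.0271 by limma. That share lies below the 10.5% called lower over all loci. RBCS1B belongs to a family of near-identical genes, so its level is uncertain. RBCS1B was not called without any one DMMTA library. Without control replicate 2 the number called in the list was 3, and without DMMTA replicate 1 or 3 it was 0. Of 18 nuclear subunits of mitochondrial complexes 2 rose, a share below the 17.4% called higher over all loci. CCME, the heme chaperone of cytochrome c biogenesis, stood at 11.9, 12.3 and 11.4 TPM against 19.2, 16.9 and 18.6 TPM, with log2 fold change 0.60 ± 0.10 and adjusted p = 0.00343. RISP2, the Rieske protein of complex III, stood at 116, 122 and 107 TPM against 143, 139 and 147 TPM, with adjusted p = 0.0284, and was not called without control replicate 1 or any one DMMTA library. The libraries of these nuclear genes spanned medians of 1.23-fold and 1.24-fold, beside 7.06-fold and 5.29-fold for the organelle loci. Of the 11 green tissue markers, LHCB2.1 rose and RCA and GAPA fell.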

How the data were processed

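Poly(A)-selected, strand-specific libraries of whole seedlings were sequenced in 3 control and 3 DMMTA samples, per the labels' protocols, and grouped by the labels. The deposited tables hold RPKM per coding sequence as the authors computed it, and the file headers name no formula. FPKM, also deposited by the authors, served as an alternative, and the deposited TPM column, taken as an unscaled other unit, as a check (largest difference 1.06% above 5 TPM). The submitters' processing notes name DESeq2 without a role or version. Aligner, counter, filters and build: not given in the sources used here, so no coordinates are printed. Of 48350 rows per table, 1884 (3.90%) with displaced or emptied cells were left out. The RPKM of the remaining rows was summed per locus and rescaled to 1000000 per library. At 10270 of the 26551 loci several coding sequence rows were summed, so their values are no level per length. Levels of such loci and of loci with 1 row are not like for like. Depth was estimated from whole-read steps of low values, of which 87.9% to 94.7% lay within 0.2 read of a whole number; reads are not independent molecules, and p-values measure the spread between these samples.

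All loci were fitted with limma 3.58.1 in R 4.3.3 on log2(TPM + 0.5) with an intensity trend, a filter of 1 TPM in 3 libraries and Benjamini-Hochberg adjustment over 18813 loci, and called at 0.05. The fit was also run on simulated data with independent noise at each locus and no effect shared by a library. That run does not cover loci that move together by library, as the organelle loci did. Sums were not tested. Names, sequences and shared 31-base stretches come from TAIR10.1, which holds all 84 plastid tags. Mitochondrial tags have names only as deposited. Figures used matplotlib 3.10.9. Named loci were rbcL, psbA, in each class the 2 highest and the 2 with the smallest p, and from each nuclear list up to 4 called genes, largest change first; genes beyond these were named after their values were seen, and some loci are not reported here. The members and lists were chosen with earlier results of these data known.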

Additional observations from a re-analysis of the deposited data

How the results depend on the processing

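No organelle locus was called with another pseudocount, the stricter filter, FPKM, median-of-ratios scaling, scaling within each organelle, without identical copies, or without both replicate 3 libraries. Without a filter 1 mitochondrial locus was called higher, ArthMp011, with a log2 fold change of 0.42, beside 13.3% of all loci called higher. Leaving out single libraries gave 0 to 3 plastid and 0 to 2 mitochondrial loci called higher and 0 lower. Over all loci these fits called 11.2% to 16.9% higher and 6.09% to 8.49% lower. With the replicate number as a block, 15 plastid loci and 1 mitochondrial locus were called higher and 1 sigma factor list gene lower. Over all loci that fit called 18.8% higher and 11.9% lower. With the replicate block and within-organelle scaling together, chosen after seeing the data, 0 plastid loci and 1 mitochondrial locus, nad2, were called, the latter lower. The numbers were not taken to pair the samples. Correlations were taken on log2 levels after each locus's group mean was subtracted, so they describe departures from the group mean. Same-numbered libraries correlated at 0.243, 0.334 and 0.082 over all loci and at 0.879, 0.833 and 0.583 over plastid loci. Over all loci each library correlated best with its own number. DMMTA lay above the control of the same number at 82, 36 and 71 of 84 plastid loci and at 30, 8 and 31 of 34 mitochondrial loci. The ratio of mitochondrial totals ranged from 0.912 to 1.86 and that of plastid totals from 1.02 to 1.37 over left-out libraries.

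Without both replicate 3 libraries the counts called were 1 of the polymerase and sigma factor list higher, 1 polymerase associated protein lower, 0 RNA turnover factors, 0 plastid subunits, 1 mitochondrial subunit higher, 0 green markers in either direction and 2 root markers lower. Without a filter they were 1 polymerase or sigma factor higher, 0 plastid subunits and 1 green marker lower, and with the stricter filter 2 root markers lower. Leaving out single libraries gave 1 to 2 polymerase or sigma factors higher and 0 to 1 lower, 1 to 6 associated proteins lower, 0 to 2 RNA factors lower, 0 to 3 plastid subunits lower, 1 to 2 mitochondrial subunits higher, 0 to 1 green markers higher and 0 to 2 lower, and 3 to 5 root markers lower. The cause was not tested; fewer libraries also lower the calls over all loci. Depth limits low loci: the lowest plastid estimate was 30.05 reads, at rps16.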
